A study of Mus musculus with 5 samples.

Results

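Genes that encode Polycomb proteins, histone deacetylases and the corepressors that carry those deacetylases were examined for trimethylation of lysine 36 on histone H3 (H3K36me3) in medullary thymic epithelial cells of the mouse. The 42 genes were chosen by name, from a list of subunits and enzymes, and make up 42 of the 21887 protein-coding genes that RefSeq places on chromosomes 1 to 19, X and Y (GRCm38.p6, the assembly of build mm10). The cells were mTEClo, the fraction of thymic medullary epithelium with low CD80, sorted as EpCAM+, UEA-1+ and Ly51lo cells from the thymus of wild-type B6 animals, with no treatment named. The 5 samples were 2 ChIP libraries (series 1 and series 2, antibody ab9050) and 3 inputs made without antibody, of which 2 belong to series 1 and 1 to series 2. Ages are not named in the labels, no label ties an animal to a library, and both ChIP libraries are of the same condition, so the spread between series may be biological or technical. The values below come from 2 lists of broad peaks, each called on 1 ChIP library, series 1 against 2 inputs and series 2 against 1. The lists hold no read counts, so depth is unknown, and where a gene has no peak the mark was not detectable at that depth, rather than shown to be absent.

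H3K36me3 is placed along transcribed gene bodies by SETD2, which travels with elongating RNA polymerase II. Polycomb repressive complex 2 (PRC2) places a different mark, trimethylation of lysine 27, and its activity is hindered on histone tails that carry H3K36me3. Polycomb repressive complex 1 (PRC1) ubiquitinates histone H2A, and the PR-DUB complex removes that ubiquitin. Histone deacetylases act mostly inside corepressor complexes, namely SIN3, NCoR, CoREST and NuRD, and in budding yeast a Sin3-containing deacetylase complex binds H3K36-methylated nucleosomes and keeps gene bodies deacetylated. The data here concern the mark on the genes that encode these proteins, not where the proteins bind.

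Series 1 peaks reached 15 of the 42 genes by at least 1 bp, series 2 peaks reached 11, and 8 genes were reached by both and 18 by either. Among all protein-coding genes the corresponding shares were 16.3%, 19.5%, 8.42% and 27.4%, and among the 42 genes they were 35.7%, 26.2%, 19.05% and 42.9%. The genes with peaks in both series were Ezh1, Jarid2, Pcgf3, Asxl2, Hdac9, Sin3a, Ncor1 and Gatad2a, so that 7 of the 12 complexes and classes below were represented. The 24 genes without a peak in either series were Suz12, Ring1, Pcgf1, Pcgf2, Pcgf5, Cbx1, Cbx2, Cbx5, Cbx6, Cbx7, Cbx8, Hdac1, Hdac5, Hdac6, Hdac7, Hdac10, Hdac11, Sin3b, Kdm1a, Rcor1, Mta1, Mta2, Mta3 and Mbd3. The median covered share of the 42 genes was 0% in each series, as was that of all protein-coding genes. Over the summed spans of 3.11 Mb, 0.618% lay under peaks in series 1 and 0.212% in series 2 (0.415% ± 0.287, SD, n = 2), against 0.315% and 0.224% (0.270% ± 0.0639, SD, n = 2) over all protein-coding genes. A coverage of at least 1% of the span was reached by 10 members in series 1 (23.8%, above the 9.12% of all protein-coding genes) and by 1 in series 2 (Hdac2, 2.38%, below the 7.1% of all). None reached it in both, against 2.28% of all. Series 1 was thus higher than series 2 by both measures, and the spread between the libraries was wider than the distance of their mean from that of all genes. No test was made, because each list comes from 1 library, there is no second condition, and the genes are not replicates.

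The sequences around the annotated starts of 4 of these genes are shown because peak positions below are counted from the start and because the starts carried no peak. They are the coding strand of each gene from RefSeq (GRCm38.p6), written 5′ to 3′ from 250 bases before to 30 bases after an annotated start, with 3 kinds of short motif in capitals where they occurred on either strand. The motifs are the GC box (GGGCGG or CCGCCC), the CCAAT box (CCAAT or ATTGG) and the core recognised by ETS factors (CCGGAA or TTCCGG). Gatad2a (chr8:69996355-69996634, minus strand) was the member with overlapping peaks of both series, Ncor1 (chr11:62457303-62457582, minus strand) the member with the most peaks, Ezh1 (chr11:101226434-101226713, minus strand) had the peak nearest to its start among genes with peaks in both series, and Hdac9 (chr12:34917066-34917345, minus strand) was the longest member.
Gatad2a: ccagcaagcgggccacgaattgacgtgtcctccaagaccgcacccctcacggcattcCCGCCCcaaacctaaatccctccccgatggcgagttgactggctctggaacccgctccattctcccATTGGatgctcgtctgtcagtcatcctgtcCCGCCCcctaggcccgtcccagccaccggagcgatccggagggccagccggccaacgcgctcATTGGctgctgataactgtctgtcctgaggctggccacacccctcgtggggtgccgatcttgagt
Ncor1: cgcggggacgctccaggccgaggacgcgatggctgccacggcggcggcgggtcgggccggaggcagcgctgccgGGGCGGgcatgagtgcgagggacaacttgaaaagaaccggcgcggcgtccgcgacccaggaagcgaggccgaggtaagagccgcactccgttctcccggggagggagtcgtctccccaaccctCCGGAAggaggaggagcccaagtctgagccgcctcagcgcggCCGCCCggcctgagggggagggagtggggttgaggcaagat
Ezh1: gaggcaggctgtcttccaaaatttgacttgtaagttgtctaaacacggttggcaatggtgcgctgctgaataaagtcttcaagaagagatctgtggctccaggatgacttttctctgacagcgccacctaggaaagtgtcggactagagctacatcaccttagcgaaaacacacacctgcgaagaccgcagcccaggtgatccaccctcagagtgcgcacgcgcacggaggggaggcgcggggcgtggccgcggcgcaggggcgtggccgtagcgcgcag
Hdac9: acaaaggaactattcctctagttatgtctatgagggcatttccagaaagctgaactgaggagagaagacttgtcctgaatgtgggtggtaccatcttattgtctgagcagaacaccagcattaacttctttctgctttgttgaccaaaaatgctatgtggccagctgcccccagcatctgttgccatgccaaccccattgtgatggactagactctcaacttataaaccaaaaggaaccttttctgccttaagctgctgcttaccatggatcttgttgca
In Gatad2a 2 GC boxes and 2 CCAAT boxes were found, in Ncor1 2 GC boxes and 1 ETS core, and in Ezh1 and Hdac9 none of the 3.

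No peak of either series touched any of the 49 RefSeq start windows, each 300 bases long, that matched 36 of the 42 genes. Cbx2, Pcgf1, Hdac1, Hdac3, Hdac10 and Mta3 were the members not matched. Peaks at such windows were rare everywhere: the window nearest to the start of the span was touched in 8 of 17492 protein-coding genes in series 1 (0.0457%) and in 12 in series 2 (0.0686%). The start windows of the 36 genes were rich in CpG, with a median of 23.5 CpG dinucleotides and 63.0% G and C, against 13 and 56.3% over all 17492. A GC box stood in 28 of the 36 (77.8%) against 46.3% of all windows, a CCAAT box in 19 (52.8%) against 39.2%, and the ETS core in 6 (16.7%) against 19.1%. The 17 windows of genes with a peak in either series had a median of 23 CpG and 64.0% G and C, and the 19 of genes without had 29 and 62.0%. A GC box was found in 11 of the former and 17 of the latter. Hdac9 stood at the low end with no CpG and 44.0% G and C, and Mta1, which had no peak, at the high end with 50 CpG and 81.0%.

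Among the 5 PRC2 genes, series 1 marked 4 and series 2 marked 2, beside 16.3% and 19.5% of all protein-coding genes. These 5 genes span 26.3 to 191 kb. In length bands above 10 kb, 13.3% to 47.7% of all genes were marked in series 1, and 14.7% to 60.2% in series 2. The PRC2 count is small and was not tested. Ezh1 and Ezh2 encode the alternative methyltransferase subunits, EED the subunit that reads the product, SUZ12 the scaffold, and JARID2 an accessory subunit that helps bring the complex to chromatin. Ezh1 (chromosome 11 from 101191115 to 101226463) was covered over 1.17% in series 1 and 0.611% in series 2 (0.893% ± 0.398, SD, n = 2). Its series 1 peak at chr11:101222837-101223251 was 415 bp wide with a score of 26, and its series 2 peak at chr11:101201490-101201705 was 216 bp wide with a score of 12. These peaks were 21.1 kb apart, with the first near the start of the gene and the second toward its end. Ezh2, its paralog, had 1 peak of 834 bp in series 1 over 1.28% of the span, with a score of 18, and none in series 2. Eed likewise had a series 1 peak alone, of 324 bp with a score of 22, over 1.23%. Suz12, 41.0 kb long, had none in either series and was the PRC2 gene without a detected peak.

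Jarid2 (chromosome 13 from 44730774 to 44921643) was covered over 0.479% in series 1 and 0.919% in series 2 (0.699% ± 0.311, SD, n = 2), and was the member with the most series 2 peaks together with Hdac9. Its series 1 peaks were at chr13:44799536-44799961 (426 bp, score 17) and chr13:44896848-44897335 (488 bp, score 16). In series 2 they were at chr13:44893163-44894108 (946 bp, score 12), chr13:44897648-44898232 (585 bp, score 12) and chr13:44921228-44921450 (223 bp, score 22). The second peak of each list lay close together without touching, 312 bp apart at 87.1% and 87.6% of the way along the gene. The last series 2 peak was at 99.8% of the span, at the end of the gene, where the nearest other coding gene, Dtnbp1, lies 435 bp beyond the span.

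In PRC1, RING1 is the ubiquitin ligase subunit, the PCGF proteins define the variants of the complex, and CBX2, CBX6, CBX7 and CBX8 are chromodomain subunits of which several bind H3K27me3. Series 1 marked 2 of these 10 genes and series 2 marked 1, beside 16.3% and 19.5% of all protein-coding genes. The median span of the 10 genes was 12.025 kb. Over the summed PRC1 spans 0.949% was covered in series 1 and 0.0840% in series 2, where PRC2 genes had 0.694% and 0.549%. Of the 2611 PRC1 bases covered in series 1, 2209 lay in Pcgf6 alone. Pcgf3 (chromosome 5 from 108461259 to 108506976) was the member marked in both, over 0.879% and 0.505% (0.692% ± 0.264, SD, n = 2), with a 402 bp peak at chr5:108478923-108479324 (score 16) in series 1 and a 231 bp peak at chr5:108485167-108485397 (score 17) in series 2, 5.84 kb apart. Pcgf6, whose product belongs to a variant PRC1 with E2F6, had the widest coverage of all 42 genes, with 12.8% of its 17.3 kb under 2 series 1 peaks of 1182 and 1027 bp and none in series 2. Their scores of 14 and 17 were low, and the mean over series, 6.38% ± 9.02 (SD, n = 2), rests on series 1 alone. No peak of either series lay in Ring1 (3.89 kb), Pcgf1 (3.30 kb), Pcgf2 (13.6 kb) or Pcgf5 (113 kb). The PRC1 chromodomain genes had none either, with Cbx2 spanning 8.26 kb, Cbx6 10.4 kb, Cbx7 55.3 kb and Cbx8 4.61 kb.

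Cbx1, Cbx3 and Cbx5 share a name with the PRC1 chromodomain genes but encode the HP1 proteins beta, gamma and alpha, which bind methylated lysine 9 of histone H3 in heterochromatin. Cbx3 had 1 peak in series 1, of 459 bp with a score of 26, over 3.39% of its 13.6 kb, and none in series 2. It lies 105 bp from Hnrnpa2b1, but the peak was 11.9 kb from the start of Cbx3 and touched no other coding gene. Neither Cbx1 (20.3 kb) nor Cbx5 (48.4 kb) had a peak. Series 1 thus marked 1 of the 3 HP1 genes and series 2 marked 0, beside 16.3% and 19.5% of all protein-coding genes. Asxl1 and Asxl2 encode alternative partners of the deubiquitinase BAP1 in PR-DUB, and both had peaks in series 1. Of all protein-coding genes of 30 to 100 kb, the band of both, 27.8% had a series 1 peak. Asxl1 had a single peak of 1067 bp with a score of 32 over 1.83%, and none in series 2. Asxl2 (chromosome 12 from 3426857 to 3510811) was covered over 2.11% and 0.262% (1.19% ± 1.31, SD, n = 2). Its series 1 peaks were at chr12:3445960-3446456 (497 bp, score 45), chr12:3484400-3485066 (667 bp, score 17) and chr12:3489439-3490045 (607 bp, score 17), and its series 2 peak was at chr12:3485761-3485980 (220 bp, score 19). The series 2 peak lay between the last 2 of series 1 and 694 bp from the nearer. The score of 45 was the highest of any series 1 peak in the 42 genes, above 91.3% of the series 1 list.

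**Figure D1:**
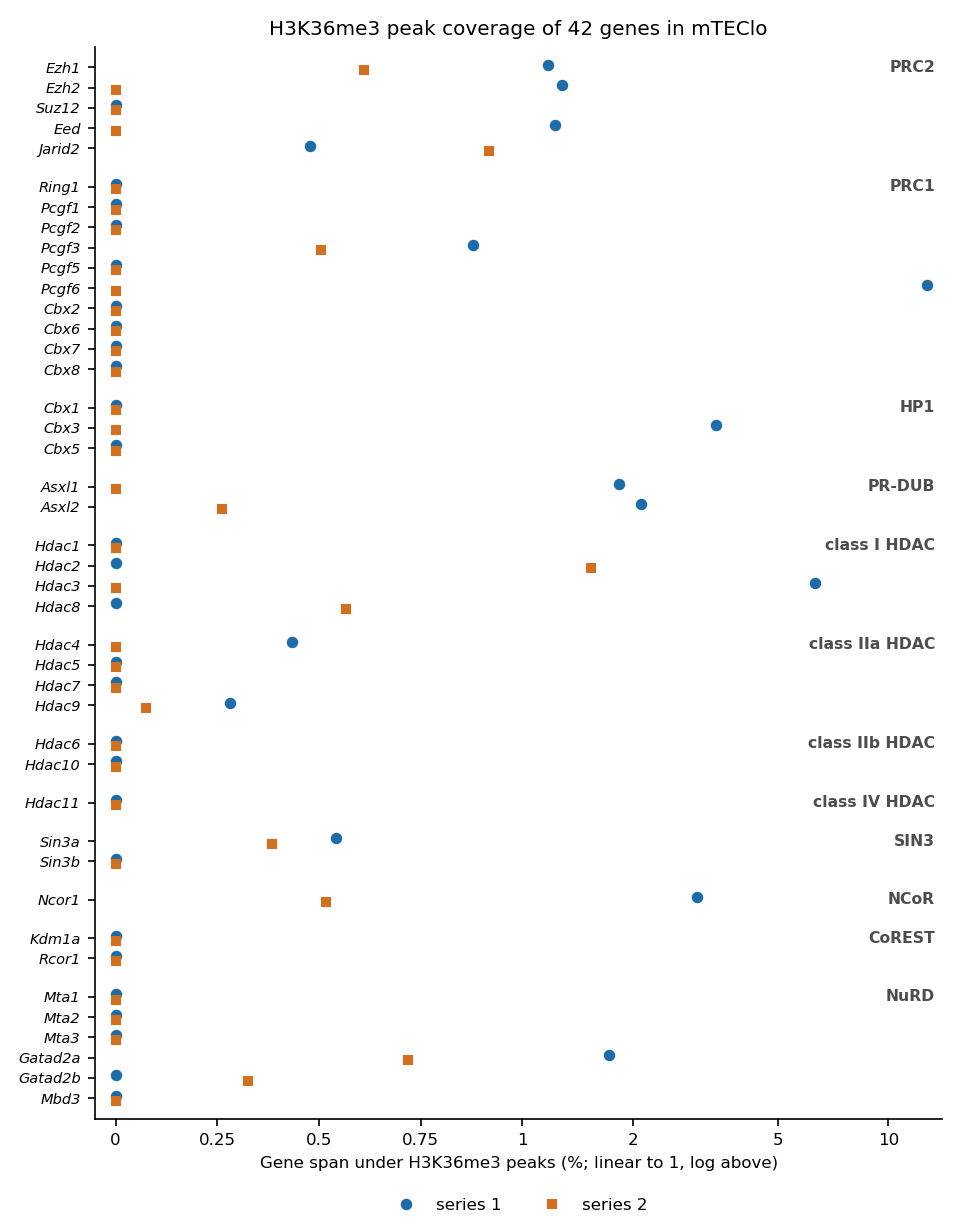
Share of each gene's span under H3K36me3 peaks, in percent on an axis that is linear to 1 and logarithmic above, for series 1 (circles) and series 2 (squares), 1 library each, with the 42 genes grouped by complex or class. Most genes sit at 0 in both series, Pcgf6 reaches 12.8% in series 1 alone, and the 8 genes with values above 0 in both series include Ncor1 at 3.002% and 0.517%.

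Among the 11 deacetylase genes, each series marked 3, and Hdac9 was the member with a peak in both. Of all protein-coding genes, 16.3% were marked in series 1, 19.5% in series 2 and 8.42% in both. The deacetylase counts are small and were not tested against these shares. Class I holds HDAC1, HDAC2 and HDAC3, the catalytic subunits of the nuclear corepressor complexes, and HDAC8. In it, Hdac3 had 2 peaks in series 1 (895 and 241 bp, both with a score of 17) over 6.30% of its 18.0 kb and none in series 2. HDAC3 is the deacetylase of the NCoR complex. Hdac2 had the reverse, with none in series 1 and 1 of 424 bp with a score of 12 in series 2 over 1.54%. Hdac8, on chromosome X, had 2 in series 2 (1034 bp with a score of 13 and 219 bp with a score of 30) over 0.568% of its 221 kb. Hdac1, the close paralog of Hdac2 (26.5 kb), had no peak, and so no class I gene was marked in both libraries.

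In class IIa, whose members shuttle between nucleus and cytoplasm and have little catalytic activity of their own, the longest genes were marked and the shorter ones were not. Hdac4, 267 kb long, had 1 series 1 peak of 1156 bp with a score of 38 over 0.433%, at 96.4% of the way to its end. Hdac9 (chromosome 12 from 34047580 to 34917095) had 5 peaks in series 1 and 3 in series 2, but over 870 kb this came to 0.280% and 0.0759% (0.178% ± 0.145, SD, n = 2). In series 1 they were at chr12:34135393-34135691 (299 bp, score 30), chr12:34178426-34178771 (346 bp, score 19), chr12:34259966-34260605 (640 bp, score 37), chr12:34465330-34466235 (906 bp, score 16) and chr12:34876468-34876714 (247 bp, score 17). In series 2 they were at chr12:34294809-34295030 (222 bp, score 17), chr12:34555418-34555636 (219 bp, score 12) and chr12:34857669-34857887 (219 bp, score 12). The nearest peaks of the 2 series in Hdac9 were 18.6 kb apart, and the covered share was the lowest among the members with a peak in both. Hdac5 (34.4 kb) and Hdac7 (51.8 kb) had none. The class IIb genes Hdac6, which encodes a cytoplasmic tubulin deacetylase, and Hdac10, a polyamine deacetylase, and the class IV gene Hdac11 had none either, and they spanned 17.9, 5.40 and 18.0 kb.

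Sin3a and Ncor1 were marked in both libraries. Of all protein-coding genes of 30 to 100 kb, the band of Sin3a, 14.3% were marked in both. Of those over 100 kb, the band of Ncor1, 33.4% were. Sin3a (chromosome 9 from 57071991 to 57128368), which encodes the scaffold of the SIN3 deacetylase complex, was covered over 0.541% and 0.385% (0.463% ± 0.110, SD, n = 2). Its series 1 peak at chr9:57111087-57111391 (305 bp, score 17) and its series 2 peak at chr9:57095060-57095276 (217 bp, score 19) were 15.8 kb apart. Its paralog Sin3b, 34.9 kb long, had no peak. Ncor1 (chromosome 11 from 62315663 to 62457414), the platform that holds HDAC3 on unliganded nuclear receptors, had 7 peaks in series 1 and 2 in series 2, the most of any member. They covered 3.002% and 0.517% of the gene (1.76% ± 1.76, SD, n = 2).

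The series 1 peaks of Ncor1 were at chr11:62339099-62339332 (234 bp, score 26), chr11:62348812-62349085 (274 bp, score 35), chr11:62352085-62353149 (1065 bp, score 16), chr11:62361387-62362253 (867 bp, score 15), chr11:62372764-62373239 (476 bp, score 11), chr11:62399303-62400211 (909 bp, score 19) and chr11:62421649-62422079 (431 bp, score 19). The series 2 peaks were at chr11:62384171-62384389 (219 bp, score 18) and chr11:62395320-62395833 (514 bp, score 12). On this minus-strand gene the series 1 peaks ran from 25.1% to 83.4% of the way along, and the series 2 peaks fell inside that stretch at 43.6% and 51.6%. The nearest peaks of the 2 series were 3.47 kb apart. The span of Ncor1 overlaps that of Ttc19, but none of its 9 peaks touched Ttc19.

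In the CoREST complex neither Kdm1a, which encodes the lysine demethylase LSD1, nor Rcor1, its scaffold, had a peak. They span 52.3 and 76.5 kb, and of all protein-coding genes of 30 to 100 kb, 46.2% had a peak in either series. In NuRD, which joins deacetylases to chromatin remodelling, the marked genes were the paralogs Gatad2a and Gatad2b, alternative subunits that link the deacetylase part to the remodeller. Series 1 marked 1 of the 6 NuRD genes and series 2 marked 2, beside 16.3% and 19.5% of all protein-coding genes. Gatad2a (chromosome 8 from 69907069 to 69996402) was covered over 1.72% and 0.720% (1.22% ± 0.707, SD, n = 2). Its series 1 peaks were at chr8:69916004-69916860 (857 bp, score 27) and chr8:69962377-69963055 (679 bp, score 17), and its series 2 peak was at chr8:69962339-69962981 (643 bp, score 12). The second series 1 peak and the series 2 peak shared 605 bp, about 33.7 kb downstream of the gene start. Gatad2b had 1 series 2 peak of 229 bp with a score of 13 over 0.326%, and none in series 1. Mta1, Mta2 and Mta3, which hold the deacetylases in NuRD, and Mbd3, its methyl-CpG-binding-domain subunit, had no peak in either series. They spanned 38.96, 10.4, 118 and 6.99 kb.

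**Figure D2:**
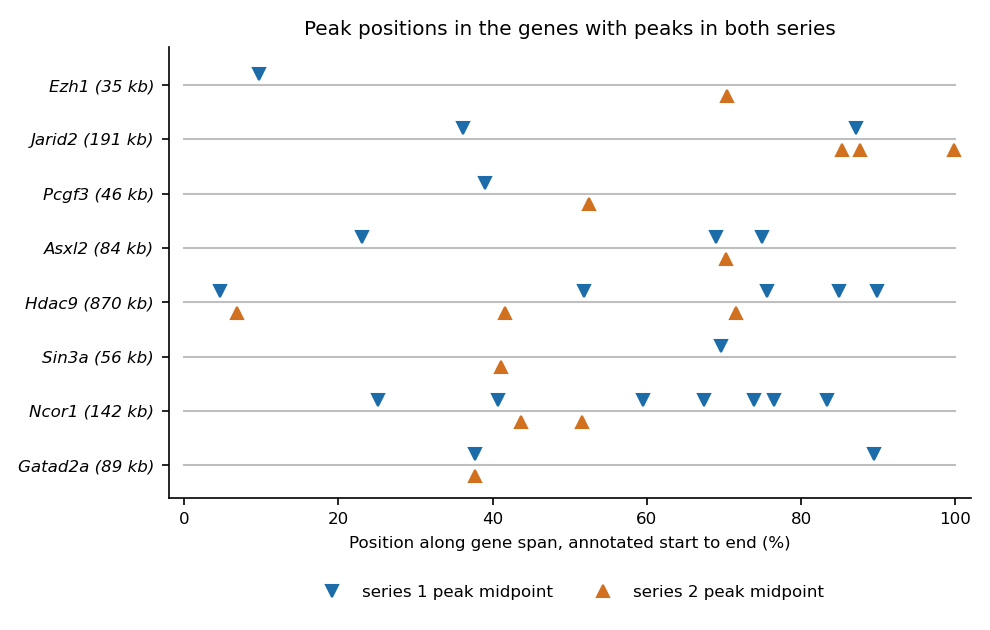
Midpoints of H3K36me3 peaks along the 8 genes with peaks in both series, in percent of the span from annotated start to end, with series 1 above each line and series 2 below. Peaks of the series coincide in Gatad2a at 37.7% and 37.8%, lie close in Jarid2 and Asxl2, and stand apart in Ezh1 and Sin3a.

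Among the 8 genes marked in both libraries, only in Gatad2a did peaks of the 2 series touch. Of the 31 series 1 peaks in the 42 genes, 1 (3.23%) touched a series 2 peak, and of the 17 series 2 peaks, 1 (5.88%) touched a series 1 peak. Among all peaks in protein-coding genes the shares were 6.601% of 5151 and 5.31% of 6397. The shares for the 42 genes and for all genes include peaks in genes that only 1 series marked. The shared 605 bp in Gatad2a made up 3.15% of the series 1 peak bases in the 42 genes and 9.19% of those of series 2, against 3.46% and 4.86% over all peaks that touch a protein-coding gene. Apart from Gatad2a, the smallest distances between series were the 312 bp in Jarid2 and the 694 bp in Asxl2.

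Peaks lay within gene bodies and leaned toward the later part in series 1. The strand was known for all members with a peak but Hdac3. By midpoint, 7 of 29 series 1 peaks fell in the first of 3 equal parts of the gene, 8 in the middle and 14 in the last, and in series 2 the counts were 2, 8 and 7 of 17. The median position was 65.0% of the span in series 1 and 52.5% in series 2, against 60.9% and 58.9% for peaks in all protein-coding genes with a known strand. The last part held 48.3% of the peaks in these genes in series 1 and 41.2% in series 2, against 43.1% and 40.9% in all genes. The middle part held 27.6% and 47.1%, against 34.7% and 35.2%, and the first part 24.1% and 11.8%, against 22.2% and 23.8%. The series thus departed from all genes in opposite directions in the middle part, on small counts and with no test. The peak nearest to a start was in Pcgf6, with its midpoint 2.42 kb downstream, followed by the series 1 peak of Ezh1 at 3.42 kb. Exons and introns were not used here.

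Members with peaks were longer than members without, as a group. The 8 genes with peaks in both series had a median span of 86.6 kb (35.3 to 870 kb), the 10 with a peak in 1 series 42.9 kb (13.6 to 267 kb) and the 24 without a peak 23.4 kb (3.30 to 118 kb). The ranges overlap, and Pcgf5, Mta3 and Rcor1 show long members with no peak. The 42 genes are also longer than most, with a median of 37.2 kb against 17.2 kb, so their counts were set beside genes of similar length. None of the 6 members up to 10 kb had a peak, where 1.78% of genes in that band were marked in series 1 and 2.41% in series 2. Of the 12 members from 10 to 30 kb, series 1 marked 4 and series 2 marked 1, with 13.3% and 14.7% in all genes of that band. Of the 17 members from 30 to 100 kb, 7 and 6 had one (27.8% and 32.7% in all), and of the 7 over 100 kb, 4 had one in each series (47.7% and 60.2% in all).

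At those band shares, 42 genes of these lengths would include 9.77 marked in series 1, 11.7 marked in series 2 and 5.30 marked in both, and 15, 11 and 8 were observed. For a peak in either series the figure was 16.2, and 18 were observed. The series 2 count stood near the level of genes of like length, although its share was above that of all genes, 26.2% against 19.5%. In series 1 the count was above that level, and most of the difference came from the bands of 10 to 30 kb (Eed, Pcgf6, Cbx3 and Hdac3) and 30 to 100 kb. None of those 4 shorter genes had a series 2 peak. The bands are broad and the counts small, and no test was made of these differences.

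**Figure D3:**
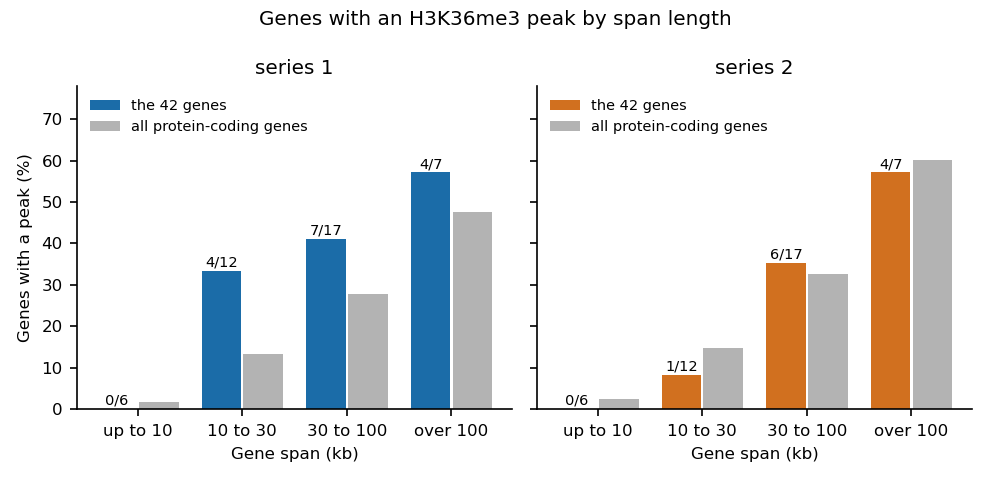
Percentage of genes with at least 1 bp of an H3K36me3 peak in 4 bands of span length, for the 42 genes (coloured bars, with counts above) and all protein-coding genes (grey bars), in series 1 and series 2. The share rises with length in both sets, and the coloured bars stand above the grey in 3 bands of series 1 but only in the band of 30 to 100 kb in series 2.

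The peaks in these genes had median scores below those of peaks in all protein-coding genes. The score is the authors' own value for each peak and is not normalized between lists. The same cuts of 20 and 50 were applied to each list, and the cut of 20 kept 55.8% of all series 1 peaks and 35.7% of all series 2 peaks. The median score in the 42 genes was 17 in series 1 and 13 in series 2, where peaks touching any protein-coding gene had medians of 21 and 16. At a score of 20 or more, 11 of 31 series 1 peaks (35.5%) and 2 of 17 series 2 peaks (11.8%) remained, against 57.8% and 36.5% of peaks in all protein-coding genes. By gene the series differed in direction: 9 of the 42 members (21.4%) had such a peak in series 1, above the 10.9% of all protein-coding genes, and 2 (4.76%, Jarid2 and Hdac8) had it in series 2, below the 9.01% of all. None of the 42 had it in both, against 3.3% of all, and 11 (26.2%) had it in either, against 16.6%. These shares are not adjusted for length. The count of members with a peak of a score of 50 or more was 0 in each series, where 1.48% of all protein-coding genes had such a peak in series 1, 0.763% in series 2, 0.0868% in both and 2.16% in either. A score of 12 or less, near the lowest of 10, was held by 8 of the 17 series 2 peaks (47.1%, against 31.7% of peaks in all protein-coding genes) and by 1 of the 31 series 1 peaks (3.23%, against 3.48%).

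**Figure D4:**
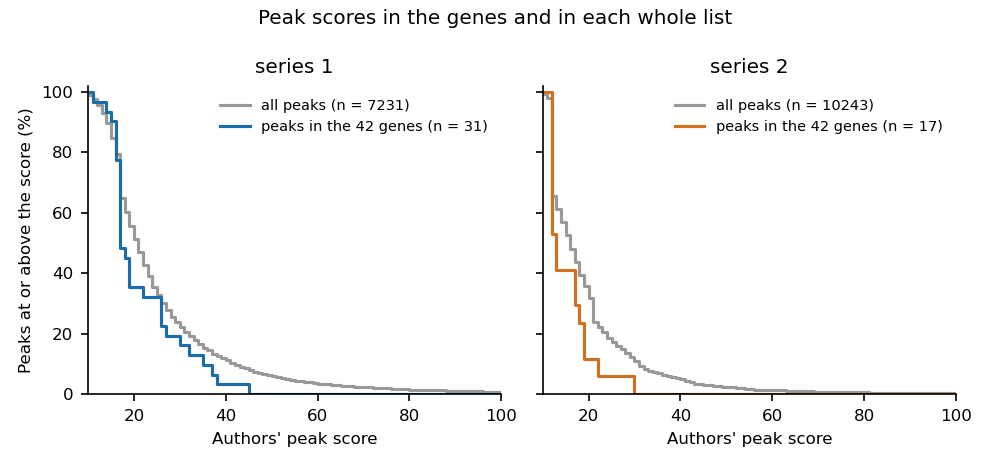
Percentage of peaks at or above each authors' score, for the peaks in the 42 genes (coloured line; 31 in series 1 and 17 in series 2) and for each whole list (grey line). The coloured line falls below the grey above a score of about 17 in series 1 and from 13 in series 2, and ends at 45 and 30.

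Peak widths followed the list they came from. The median width was 497 bp in series 1, from 234 to 1182 bp, and 223 bp in series 2, from 216 to 1034 bp, where peaks in all protein-coding genes had medians of 523 and 223 bp. Series 2 peaks thus add less to a covered share than series 1 peaks, and the 6580 covered bases of series 2 came from 17 peaks, where the 19222 of series 1 came from 31.

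Other genes of the same complexes were counted in the same way. Of 51 genes that belong to these complexes but not to the 42, series 1 marked 14, series 2 marked 22 and both marked 12, and 10.8, 12.99 and 6.02 would be marked at the shares of their length bands. Those marked in both included Phc3, Bcor, Scmh1 and Zmym2, the SIN3 subunit genes Sap130, Arid4a and Arid4b, and the NuRD remodeller genes Chd3 and Chd4. Chd3 was the best covered of them, with 6.19% and 9.52% of its span (7.86% ± 2.36, SD, n = 2), above every one of the 42 genes in series 2. With these genes counted, the CoREST genes with a peak in both series included Rcor3 and Phf21a, though Kdm1a and Rcor1 had none. No test compared the 42 genes with the 51.

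For the cell type, 3 of 8 markers of medullary epithelium carried a peak in at least 1 series, namely Krt5 in both, Trp63 in series 1 and Relb in series 2, and Epcam, Krt14, Krt8, Foxn1 and Cd40 had none. None of 10 markers of thymocytes, fibroblasts, endothelium and B cells had a peak in either series. Among all protein-coding genes, 27.4% had a peak in either series. The marker lists are short and were not tested against that share. The lists held 7231 peaks in series 1 and 10243 in series 2.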

How the data were processed

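H3K36me3 ChIP of mTEClo was measured in 2 libraries, with 3 input libraries. The submitters' processing notes name Bowtie2, SAMtools, MACS2 and build mm10, but no versions or settings. The peak names of the deposited lists say that alignments were filtered and sorted, that series 1 was called against 2 inputs and series 2 against 1, without pooling ChIP libraries. The authors deposited a score for each peak, a whole number whose meaning is not stated and which is not normalized between lists. Depth is unknown, and the number of libraries limits precision. Read-level input data were not used here.

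Peaks were intersected with RefSeq gene spans (GRCm38.p6, 1 span a gene). A gene counts as having a peak from 1 bp, and the covered share is the percentage of the span under peaks. A peak counts for every gene it touches. Strand and start sequences came from the RefSeq promoter table. Shares of all protein-coding genes, overall and in 4 length bands, serve as background. All 42 members are named, those with peaks in both series with every peak. Not every one of the other genes is reported here by name. Members, complexes, the 51 other genes and the alternatives were chosen with earlier results of these data known. No significance test was made. The overlap code was checked against base-by-base counting on simulated intervals. Python 3.11.15, numpy 2.4.6, pandas 2.3.3 and matplotlib 3.10.9 were used.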

Additional observations from a re-analysis of the deposited data

How the results depend on the processing

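The counts were 15 genes in series 1, 11 in series 2, 8 in both and 18 in either. Requiring at least 50% of a peak in the span could not change them, since every peak lay wholly inside its gene. Dropping peaks that touch another coding gene could not either, since no peak did. Extending spans by 2 kb kept the counts within 1.5 times of these values and added Mta2 in series 2 through a peak of 219 bp. Restricted to scores of 20 or more the counts were 9, 2, 0 and 11, and to 50 or more they were 0 in each. With at least 500 bp under peaks they were 10, 5, 4 and 11, and with at least 1% of the span 10, 1, 0 and 11. With peaks wider than 250 bp they were 15, 5, 3 and 17, and the 3 genes still in both were Jarid2, Ncor1 and Gatad2a. Shares of all protein-coding genes were not counted under the 2 kb, 500 bp and 250 bp alternatives, nor for either series at 1%. Of series 2 peaks in all protein-coding genes, 68.2% were at most 231 bp wide, against 64.7% of those in the 42 genes. With either library left out, no count for both series exists, and only the single-series counts of 11 and 15 remain. The median covered share was 0%, and since 24 of the 42 genes had no peak in either list, the alternatives run for it could not move it. The covered share of the summed spans, 0.415%, was 0.212% and 0.618% in the single libraries, 0.397% with extended spans and 0.107% at scores of 20 or more. Placing peaks by the edge nearest the start moved the median position from 65.0% to 64.3% in series 1 and from 52.5% to 52.3% in series 2. Membership of the group with peaks in both series thus depends on peaks of low score. With 1 library per list, a missing peak cannot be told from low depth.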
